A study of Mus musculus with 6 samples.

Results

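The genes of arachidonic acid and prostaglandin metabolism were examined in RNA of the mouse cochlear modiolus, the central pillar of bone and nerve where the spiral ganglion neurons (SGNs) lie. Members were the protein-coding genes of the GENCODE annotation whose symbols begin with Pla2g, Alox, Ephx or Cyp2j or name a prostaglandin synthase or prostaglandin receptor, together with the cyclooxygenases, Hpgd, Hpgds, Lta4h, Ltc4s and Tbxas1. This rule, which uses gene symbols and no measured value, found 62 members among 21951 annotated protein-coding genes. RNA-seq was performed on 6 libraries of C57BL/6 mice, 3 from control mice that received saline and 3 from mice in which kanamycin and furosemide, an aminoglycoside antibiotic and a loop diuretic that together destroy hair cells, had led to SGN degeneration. The sample labels name the SGN as the cell type, but the tissue was the whole modiolus, with glia, vessels, fibroblasts, bone and blood cells. The sources used here do not say whether a library came from 1 animal or from pooled animals, so p-values measure the spread between these libraries.

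Arachidonic acid is held in membrane phospholipids and is set free by phospholipases A2. Cyclooxygenases and terminal synthases turn it into prostaglandins, prostacyclin and thromboxane, lipoxygenases into leukotrienes and related hydroxy acids, and cytochrome P450 enzymes of the Cyp2j family into epoxides, which epoxide hydrolases open. These lipids act locally through G protein-coupled receptors and are known for their part in inflammation, vascular tone and pain, and in the cochlea for effects on blood flow.

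The deposited unit was the raw count per Ensembl transcript, and counts were summed per gene over the transcripts in the table. Libraries held 14418480 to 15549319 counts in controls and 12480876 to 14841769 in the degenerated group. Of the 62 members, 51 had at least 1 listed transcript, and 111 of the 220 annotated transcripts of all members were in the table. The other 11 members have no counts here, and these are Pla2g2f, Alox12, Alox12b, Cyp2j5, Cyp2j6, Cyp2j7, Cyp2j11, Cyp2j12 and the prostaglandin receptors Ptger1, Ptger2 and Ptgir. Of the 51 listed members, 14 did not pass the filter on low counts. Among these, Cyp2j13, Pla2g1b and Pla2g4d had 0 counts in every library (read as up to 3 counts per library), and the other 11 had mean levels in controls below 0.6 CPM, the count scaled to library size. The 37 members tested are described below by their place in the pathway. For 5 of them (Lta4h, Pla2g3, Pla2g4b, Pla2g5 and Ptges2) the listed transcripts were all non-coding, and for 12 of them every coding transcript was listed.

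Markers of the cell types a modiolus can hold differed between libraries. The summed CPM of the 7 SGN markers was 8560 to 11698 in controls and 5295 to 7777 in degenerated libraries, and that of the 6 hair cell markers was 446 to 621 and 154 to 387. Single markers differed, with 2 of the 7 SGN markers (Gata3 and Prph) at a log2 fold change above 0 and 5 below. Of the 5 hair cell markers tested, 1 (Myo7a) was above 0 and 4 were below. In a bulk sample, fewer cells of a type and less RNA per cell cannot be told apart. The neutrophil markers (5 of 6 listed) ranged widely within groups, with 243, 12794 and 6342 CPM in controls 1 to 3 and 580, 1824 and 4468 CPM in the degenerated libraries. Erythroid markers (3 of 4 listed) summed to 4516 to 30148 CPM in controls and 2496 to 11589 CPM in degenerated libraries, and platelet markers (3 of 4 listed) to 15.2 to 153 and 13.5 to 121 CPM. Control 1 was the lowest control for the neutrophil, erythroid and platelet sums. Osteoblast markers (2 of 3 listed) summed to 219, 486 and 331 CPM in controls and 104, 89.4 and 179 CPM in degenerated libraries, without overlap. Skeletal muscle markers reached 259 CPM in control 3 and at most 1.65 CPM elsewhere. Each of the 37 members was compared with each of the 13 marker lists by the order of its 6 libraries, and in 3 of the 481 pairs the orders were identical (Alox5ap with neutrophil, Tbxas1 with platelet and Ptgis with osteoblast markers). These are descriptions over 6 libraries that share their depth, and the part of these cell types in the members' levels was not tested.

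The levels of the members are ranked here over the listed transcripts only, so the ranking depends on which transcripts are listed. Ptgds, the lipocalin-type prostaglandin D synthase, stood far above all other members, with a mean of 3139 TPM (a scaled level per length, here over the listed transcripts). Pla2g7 (257 TPM), Ephx1 (246 TPM), Pla2g16 (171 TPM), Alox5ap (100.4 TPM), Hpgd (92.8 TPM), Pla2g12a (90.3 TPM) and Ptgis (73.3 TPM) followed. Ptgds alone made up 69.9% to 78.5% of the summed TPM of the members in controls and 54.4% to 69.3% in degenerated libraries. Without Ptgds, the members summed to 1253 to 1408 TPM in controls and 1374 to 1482 TPM in degenerated libraries, and these ranges overlapped.

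**Figure D1:**
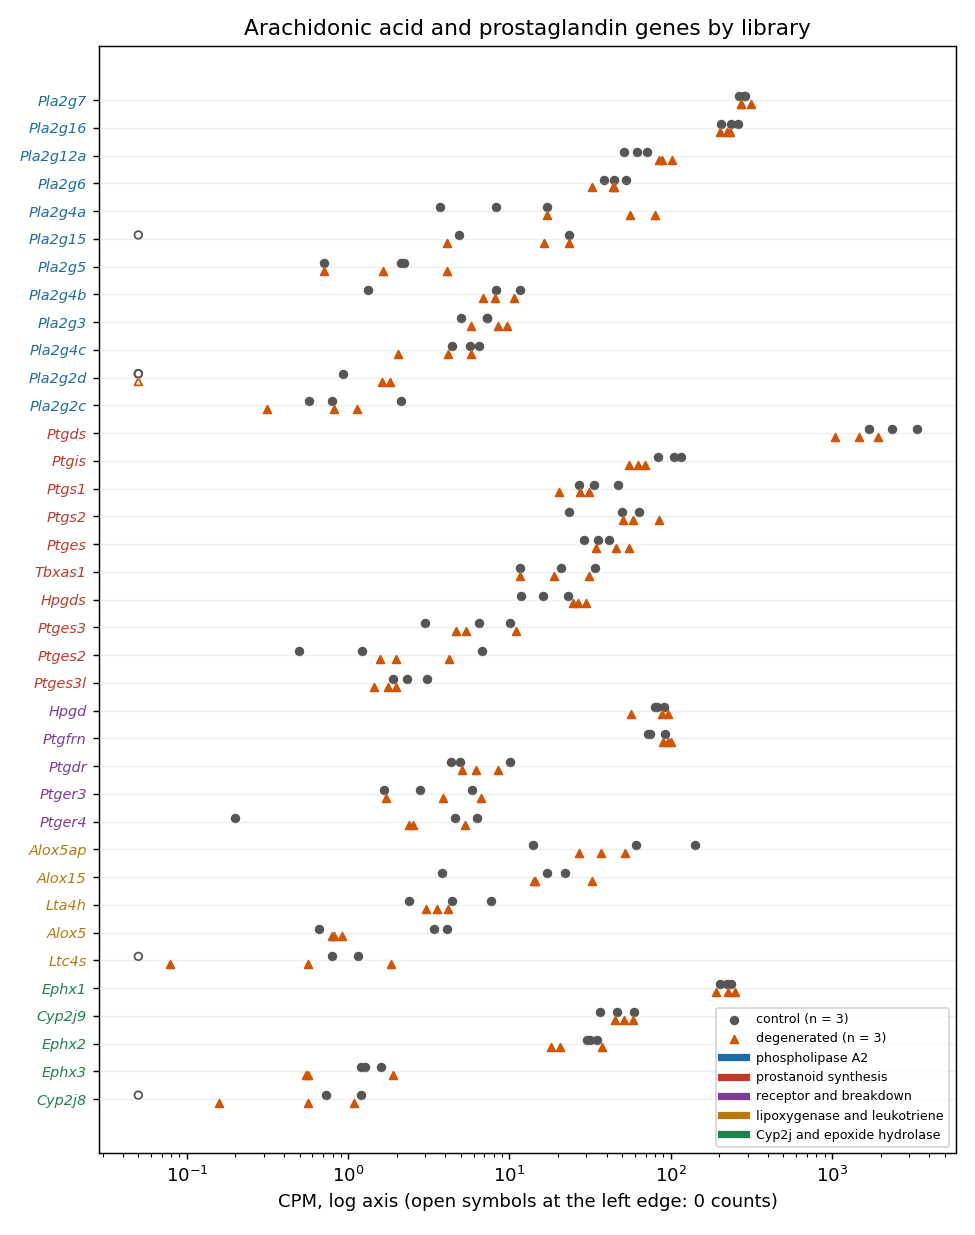
Normalised level in CPM (log axis) of the 37 members tested, grouped and coloured by role and ordered within each role by mean TPM, with 1 symbol per library (circles, 3 controls; triangles, 3 degenerated). Ptgds lies at 1044 CPM or more in all 6 libraries, and for most members the symbols of both groups are mixed.

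Across the 37 members, degenerated and control libraries were compared in a fit to all 14118 genes tested with edgeR's quasi-likelihood test. With an unadjusted p under 0.01 and a log2 fold change beyond 0.2 in either direction, 1 member was downregulated and 0 were upregulated, or 2.70% of the members beside 2.73% of all genes tested (2.01% upregulated and 0.715% downregulated). At an unadjusted p under 0.05, 4 members passed (10.8%, against 9.68% of all genes), namely Ptgis, Pla2g12a, Pla2g4a and Alox5. At an adjusted p under 0.05, edgeR called 0 members and 0 genes (0.0%), and the smallest adjusted p of a member was 0.336. DESeq2 on the same counts called 3 members by p and fold change (Ptgis, Pla2g12a and Pla2g4a, against 5.56% of all genes) and 2 at an adjusted p under 0.05 (Ptgis and Pla2g4a, against 2.71% of all genes), and limma-voom called 0 at that adjusted p. The shares of members called by edgeR were close to those of all genes. With DESeq2 the shares of members exceeded those of all genes, on only 3 and 2 of the 37 members. Control and degenerated libraries did not overlap for 3 of the 37 members, or 8.11% beside 17.7% of all genes, with Pla2g12a and Hpgds higher and Ptgis lower in every degenerated library. The log2 fold changes lay above 0 for 19 members and below 0 for 18, with a median of 0.02 beside -0.003 for all genes. Their median size was 0.35, against 0.31 for all genes, with a median standard error (SE) of 0.45 against 0.35.

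**Figure D2:**
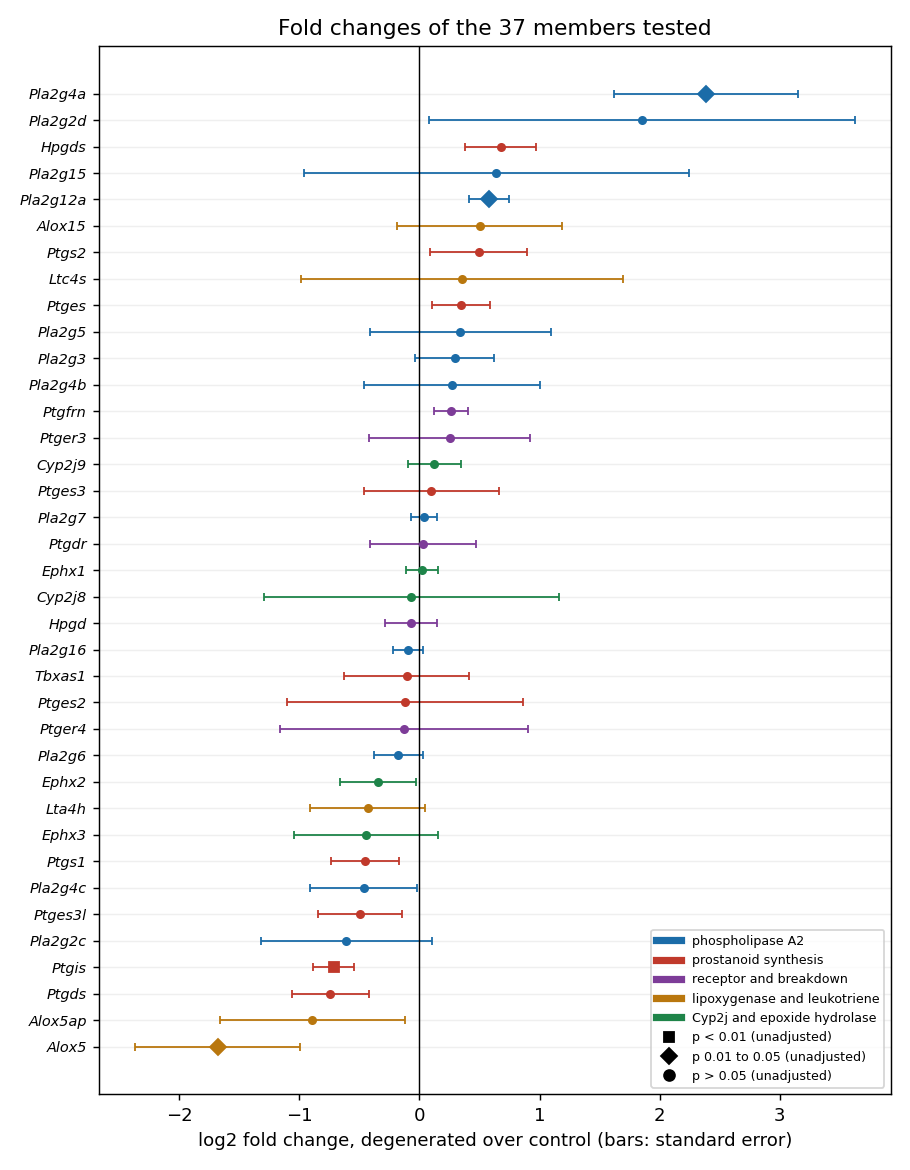
Log2 fold change of each of the 37 members tested (horizontal axis, degenerated over control, 3 libraries each), with bars of 1 standard error and colours by role. Fold changes run from -1.68 (Alox5) to 2.39 (Pla2g4a), and only Ptgis (square) has an unadjusted p under 0.01.

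Phospholipases A2, which release arachidonic acid and other fatty acids, made up 20 members, of which 12 were tested. None of the 12 was called by edgeR at a p under 0.01, 8 had a log2 fold change above 0 and 4 below 0, and their median was 0.28. Pla2g4a (ENSMUSG00000056220, chr1:149829618-149961290 in GRCm38) encodes the cytosolic phospholipase A2 that prefers phospholipids with arachidonic acid. It had 8.21, 17.2 and 3.70 CPM in controls 1 to 3 and 55.7, 17.1 and 79.6 CPM in degenerated libraries 1 to 3. Degenerated libraries 1 and 3 were above every control, whereas degenerated library 2 was level with control 2. Group means (± SD, n = 3 each) were 9.70 ± 6.87 and 50.8 ± 31.5 CPM, and the log2 fold change of 2.39 (SE 0.77) did not pass (edgeR, adjusted p = 0.421). DESeq2 gave a similar log2 fold change, 2.37, with an adjusted p of 0.0455. Of its 3 annotated coding transcripts only 1, Pla2g4a-201, was listed, and nearly all of its listed counts lay in this transcript. Because Pla2g4a had the largest log2 fold change of the members, the 300 bases around the start of this transcript are shown (RefSeq, GRCm38.p6, chr1:149961241-149961540, minus strand, 250 bases before the start and 50 after it, 5′ to 3′).
Pla2g4a promoter: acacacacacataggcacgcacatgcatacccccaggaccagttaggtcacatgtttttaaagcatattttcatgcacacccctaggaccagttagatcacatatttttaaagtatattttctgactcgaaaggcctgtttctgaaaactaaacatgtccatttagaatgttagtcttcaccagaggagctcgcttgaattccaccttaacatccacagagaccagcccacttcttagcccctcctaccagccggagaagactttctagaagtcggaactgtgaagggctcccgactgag

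Promoters of 51 members were matched in this RefSeq table (56 windows of the same size, some members having more than 1 start), and 5 motifs were searched for on both strands as a description. These are not the same 51 members as those with a listed transcript. They include members without one, such as Alox12 and Ptger2, and Ptgis had no window. The Pla2g4a window above held no match to any of the 5 motifs, which says only that these letters are not in this window. Another Pla2g4a window, at a different start (chr1:149922390-149922689), held a TATA box. The GC box (GGGCGG) was found in 28 of the 56 member windows and in 35.7% of all promoters in the table. The TATA box (TATAAA) was found in 6 (10.7%, against 13.6%), AP-1 (TGANTCA) in 4 (7.14%, against 7.81%), the E-box (CACGTG) in 4 (7.14%, against 7.15%) and the cAMP response element (TGACGTCA) in 0 (against 1.79%).

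Pla2g12a (ENSMUSG00000027999, chr3:129878606-129895825), a secreted phospholipase A2, had 62.0, 70.9 and 51.2 CPM in controls and 84.4, 88.9 and 101 CPM in degenerated libraries. All 3 degenerated libraries were above all 3 controls, and the means were 61.4 ± 9.84 and 91.6 ± 8.82 CPM (SD, n = 3 each). The log2 fold change was 0.58 (SE 0.17), with adjusted p = 0.390 by edgeR, and 0.56 with adjusted p = 0.151 by DESeq2. Of its 2 annotated coding transcripts only 1, Pla2g12a-201, was listed, and it held 90.5% of the listed counts. For this transcript alone the groups overlapped (46.7 to 70.2 CPM in controls and 69.2 to 97.7 CPM in degenerated libraries). The most abundant members of the class had small fold changes. Pla2g7, which hydrolyses platelet-activating factor, had 264 to 290 CPM in controls and 272 to 316 CPM in degenerated libraries, a log2 fold change of 0.04 (SE 0.11). Pla2g16, a phospholipase known best from adipose tissue, had 206 to 260 and 202 to 234 CPM, a log2 fold change of -0.09 (SE 0.13). Pla2g6, the calcium-independent enzyme, had 38.4 to 53.1 and 32.6 to 44.2 CPM, a log2 fold change of -0.17 (SE 0.21). Pla2g15, the lysosomal enzyme, had 0 counts in control 3 and 4.10 to 23.5 CPM in the other libraries, so that its log2 fold change of 0.64 had an SE of 1.60. The remaining 6 tested members of the class stayed below 12 CPM in every library. Pla2g4e, which was not tested, had 4, 8 and 6 counts in controls and 1, 1 and 0 in degenerated libraries.

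The synthesis of prostanoids was the best covered step, since all 10 members were listed and tested, of which 1 was called. Ptgis (ENSMUSG00000017969, chr2:167191805-167240604), the prostacyclin synthase of vessel walls and fibroblasts, was downregulated. It had 83.9, 115.9 and 104.8 CPM in controls 1 to 3 and 62.5, 54.7 and 68.8 CPM in degenerated libraries 1 to 3, so that every degenerated library lay below every control. Group means (± SD, n = 3 each) were 102 ± 16.2 and 62.0 ± 7.06 CPM. The log2 fold change was -0.71 (SE 0.17) with adjusted p = 0.336 by edgeR (unadjusted p = 0.00557), and -0.73 with adjusted p = 0.0289 by DESeq2. Of its 2 annotated coding transcripts only 1, Ptgis-201, was listed. Ptgis-201 held 99.7% of the listed counts and was also the only transcript of the members to be called. Without control 2, control 3, degenerated 1 or degenerated 2, the unadjusted p of edgeR's test rose to between 0.0185 and 0.0249 and the call was lost, with log2 fold changes of -0.73 to -0.61. Endothelial markers (3 of 4 listed), which mark cells of the vessel wall, summed to 113 to 143 CPM in controls and 131 to 142 CPM in degenerated libraries, and fibroblast markers (3 of 5 listed) to 1514 to 1937 and 1138 to 1567 CPM. The osteoblast markers had the same order of the 6 libraries as Ptgis, from degenerated 2 (89.4 CPM) to control 2 (486 CPM). Their sum, like Ptgis, was lower in every degenerated library than in every control, and so were the sums of the SGN, hair cell and mast cell markers. Of the osteoblast markers, Bglap was called (log2 fold change -1.54, unadjusted p = 0.00850 by edgeR) and Sp7 was not (-1.16). The part of any of these cells in the lower Ptgis level was not tested.

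The enzymes that make prostaglandin D2 had fold changes of opposite sign, and neither was called. Ptgds (ENSMUSG00000015090, chr2:25466709-25470046), which encodes a synthase that also carries lipophilic molecules, had 1706, 2367 and 3344 CPM in controls and 1916, 1479 and 1044 CPM in degenerated libraries. Degenerated libraries 2 and 3 were below every control, and degenerated library 1 lay between control 1 and control 2. The log2 fold change was -0.74 (SE 0.32) with adjusted p = 0.547 by edgeR, and it ranged from -0.98 to -0.48 when single libraries were left out. Hpgds (ENSMUSG00000029919, chr6:65117293-65144908), the glutathione-dependent synthase of mast cells, macrophages and other blood-derived cells, had 16.2, 23.1 and 11.7 CPM in controls and 26.5, 24.9 and 30.0 CPM in degenerated libraries. All degenerated libraries were above all controls, by little between control 2 and degenerated 2, and the log2 fold change was 0.68 (SE 0.29, adjusted p = 0.547 by edgeR). Mast cell markers summed to 149 to 207 CPM in controls and 109 to 131 CPM in degenerated libraries, with Cpa3 at 0 counts in every library. Kit (71.6 to 144 CPM) and Hdc (10.9 to 106 CPM) made up most of these sums and were the only 2 mast cell markers tested. Fcer1a, Cma1, Tpsb2 and Mcpt4 reached at most 3.11 CPM. Of the 6 macrophage markers 3 were listed, without Csf1r, Adgre1 and C1qa, and they summed to 9.76 to 19.4 and to at most 10.8 CPM, with Cx3cr1 at a log2 fold change of 1.85, Cd68 at -1.54 and Aif1 not passing the filter. The part of these cells in the Hpgds level was not tested.

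The cyclooxygenases, the first step of prostanoid synthesis, overlapped between groups. Ptgs1, the constitutive form, had 27.0, 47.2 and 33.6 CPM in controls and 30.9, 20.3 and 27.4 CPM in degenerated libraries, with a log2 fold change of -0.46 (SE 0.28). Ptgs2, the inducible form, had 63.6, 49.9 and 23.4 CPM in controls and 57.9, 84.3 and 50.3 CPM in degenerated libraries, with a log2 fold change of 0.49 (SE 0.40). The fold change of Ptgs2 was 0.17 without control 3, the lowest library, and 0.24 without degenerated 2, the highest. Ptges, the inducible prostaglandin E synthase, had 35.5, 28.8 and 41.5 CPM in controls and 54.7, 45.7 and 34.3 CPM in degenerated libraries (log2 fold change 0.35, SE 0.24). Tbxas1, the thromboxane synthase of platelets and macrophages, had 11.7 to 34.0 and 11.6 to 31.2 CPM (log2 fold change -0.11, SE 0.52). Its 6 libraries stood in the order of the platelet marker sum, from degenerated 2 (13.5 CPM of markers) to control 2 (153 CPM), and the part of platelets in its level was not tested. Hipk2 overlaps the span of Tbxas1 on the opposite strand, and without a stated strand of the counting, reads in bases that both share cannot be told apart. Other members, such as Ptgis (with 1110018N20Rik) and Ptger4 (with Ttc33), also overlap genes on the opposite strand. Ptges3l, which overlaps Rundc1 on the opposite strand, had a log2 fold change of -0.50 (SE 0.35), and Ptges2 and Ptges3 reached at most 10.9 CPM.

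For the receptors, 3 members were not listed and 2, Ptgdr2 and Ptgfr, were too low to be tested. The 4 prostaglandin receptors and receptor partners tested and the breakdown enzyme Hpgd gave 0 calls and a median log2 fold change of 0.03. Ptgfrn, a membrane protein that dampens the prostaglandin F2 alpha receptor, had 92.1, 74.6 and 72.0 CPM in controls and 101, 89.8 and 95.7 CPM in degenerated libraries, with a log2 fold change of 0.26 (SE 0.14). Hpgd, which inactivates prostaglandins, had 80.3, 82.5 and 91.1 CPM in controls and 88.3, 57.0 and 96.6 CPM in degenerated libraries, with a log2 fold change of -0.07 (SE 0.22). The receptors Ptgdr, Ptger3 and Ptger4, for prostaglandins D2 and E2, reached at most 10.1 CPM, and their log2 fold changes of 0.03 (SE 0.44), 0.25 (SE 0.67) and -0.13 (SE 1.03) were all smaller than their standard errors.

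Lipoxygenase and leukotriene genes numbered 10 members, with 5 tested and 0 called, and a median log2 fold change of -0.43. Alox5 (ENSMUSG00000025701, chr6:116410077-116461178), the enzyme that starts leukotriene synthesis in white blood cells, had 0.66, 3.40 and 4.08 CPM in controls and 0.82, 0.92 and 0.79 CPM in degenerated libraries. Controls 2 and 3 were above the degenerated libraries, and control 1 was below all of them. The log2 fold change was -1.68 (SE 0.69, adjusted p = 0.516 by edgeR), and without control 1 it was -2.15 with unadjusted p = 0.00170 by edgeR. A retained-intron transcript, Alox5-206, held 82.8% of the Alox5 counts, and the coding transcript in the table had 27 counts, all in control 3. Alox5ap (ENSMUSG00000060063, chr5:149264767-149288153), the membrane protein that presents arachidonic acid to Alox5, had 13.97, 141 and 61.0 CPM in controls and 27.2, 37.1 and 52.0 CPM in degenerated libraries. The 3 controls spread wider than the degenerated libraries and enclosed all of them, and the log2 fold change was -0.89 (SE 0.77), or 0.046 without control 2.

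The order of the 6 libraries by Alox5ap was the same as their order by the summed neutrophil markers, from control 1 (243 CPM of markers) to control 2 (12794 CPM). Alox5 did not have that order. The part of neutrophils in the Alox5ap and Alox5 levels was not tested. Alox15, a lipoxygenase of eosinophils and macrophages, had 3.84, 17.2 and 22.0 CPM in controls and 14.4, 14.2 and 32.4 CPM in degenerated libraries, with a log2 fold change of 0.50 (SE 0.69) and control 1 again the lowest. Lta4h, which makes leukotriene B4, had 2.38 to 7.71 and 3.03 to 4.17 CPM (log2 fold change -0.43, SE 0.48), counted on non-coding transcripts only.

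**Figure D3:**
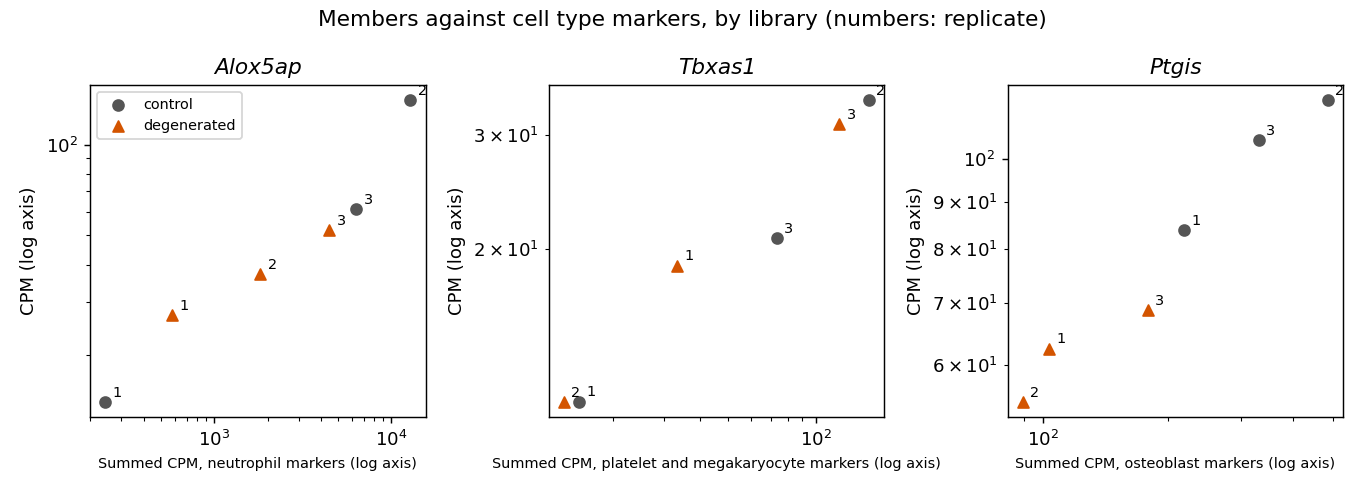
Levels of Alox5ap, Tbxas1 and Ptgis (vertical axes, CPM, log) against the summed CPM of neutrophil, platelet and osteoblast markers (horizontal axes, log), with 1 point per library labelled by its replicate number (circles, controls; triangles, degenerated). These 3 of the 481 pairs were plotted because their orders of the 6 libraries were identical, so that match follows from the choice. Only in the Ptgis panel do the groups lie apart.

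Of the Cyp2j epoxygenases and epoxide hydrolases, 12 members, 5 were tested, 0 were called, and the median log2 fold change was -0.07. Ephx1, the microsomal epoxide hydrolase, had 202, 223 and 235 CPM in controls and 191, 251 and 227 CPM in degenerated libraries, with a log2 fold change of 0.02 (SE 0.13). Ephx2, the soluble hydrolase that acts on arachidonic acid epoxides, had 35.0, 31.6 and 30.4 CPM in controls and 37.7, 20.6 and 18.1 CPM in degenerated libraries. Degenerated libraries 2 and 3 were below the controls and degenerated 1 above them, and the log2 fold change was -0.34 (SE 0.32). Cyp2j9 had 36.6 to 59.2 and 45.1 to 58.1 CPM, with a log2 fold change of 0.12 (SE 0.22), and Cyp2j8 and Ephx3 stayed below 2 CPM.

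The counts were also compared per transcript, since the table lists the transcripts of a gene only in part. Of the 111 listed transcripts of members, 54 were tested, 37 of them coding, and 1 was called by edgeR, Ptgis-201, beside 1.79% of all 26065 transcripts tested. With an unadjusted p under 0.05, 4 passed (7.41%, against 7.55% of all transcripts), which were Ptgis-201, Pla2g4a-201, Ptges3l-202 and Ptgds-205. CPM per transcript are scaled by factors of the transcript table and differ slightly from CPM per gene.

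For Ptgds, which was not called, the fold change was larger in a transcript without an annotated reading frame than in the coding Ptgds-201. Only this 1 of its 3 annotated coding transcripts was listed. Ptgds-205, a retained-intron transcript, held 67.8%, 78.9% and 80.5% of the Ptgds counts in controls 1 to 3 and 72.1%, 59.0% and 69.2% in degenerated libraries 1 to 3. It had 1193, 1911 and 2735 CPM in controls and 1376, 858 and 723 CPM in degenerated libraries, and these groups overlapped. The log2 fold change of Ptgds-205 was -0.98 (SE 0.38), with unadjusted p = 0.0435 and adjusted p = 0.645 by edgeR. The coding Ptgds-201 had 568, 511 and 661 CPM in controls and 532, 598 and 321 CPM in degenerated libraries, with a log2 fold change of -0.26 (SE 0.25), and its groups overlapped. Ptgds-205 starts within the first intron of Ptgds-201, and holds intronic stretches of 256 bases (chr2:25469128-25469383) and 455 bases (chr2:25466832-25467286) that Ptgds-201 lacks. The shorter is shown since only these bases and the longer stretch can tell reads of Ptgds-205 from reads that both transcripts share (GRCm38, minus strand, 5′ to 3′).
Ptgds-205 retained stretch: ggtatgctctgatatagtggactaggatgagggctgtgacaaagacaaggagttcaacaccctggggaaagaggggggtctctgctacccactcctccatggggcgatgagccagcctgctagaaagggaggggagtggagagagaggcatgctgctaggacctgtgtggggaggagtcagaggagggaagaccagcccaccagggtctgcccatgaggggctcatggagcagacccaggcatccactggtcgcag

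The split of counts between transcripts of a gene also varied within groups. For Pla2g16, the transcript Pla2g16-203 had 137 CPM in control 3 and 116 and 104 CPM in degenerated libraries 1 and 3, but 8.47 to 9.92 CPM in the other libraries, while Pla2g16-201 went from 187 to 224 CPM in those other libraries to 89.6 to 114 CPM. The sum over the gene stayed within 202 to 260 CPM. For Pla2g6, Pla2g6-203 had 439 counts (28.4 CPM) in control 3 and 0 counts in every other library, and Pla2g6-210 had 3.17 CPM in control 3 and 11.1 to 43.4 CPM elsewhere.

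**Figure D4:**
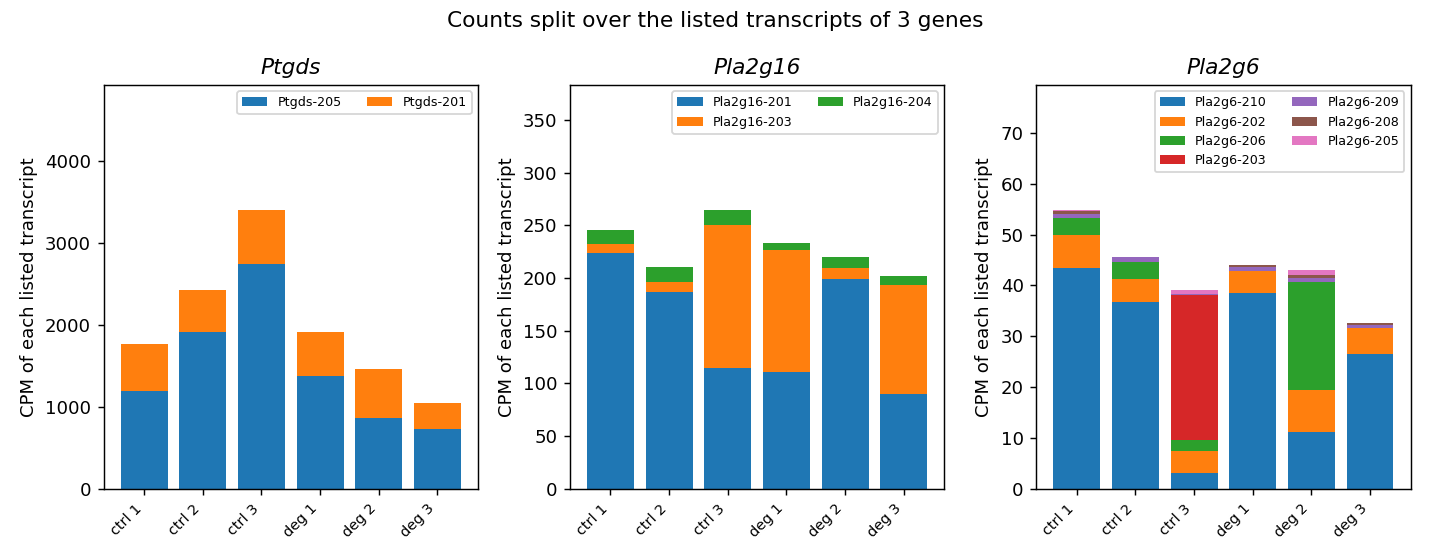
Stacked CPM of the listed transcripts of Ptgds, Pla2g16 and Pla2g6 in each of the 6 libraries (bars from 0, 3 controls then 3 degenerated, without error bars since each bar is 1 library). In Ptgds the retained-intron transcript Ptgds-205 is the larger share of every bar, and in Pla2g16 and Pla2g6 the split changes between libraries of the same group.

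Among 52 other genes of the pathway (leukotriene and thromboxane receptors, transporters, reductases, fatty acid desaturases and other enzymes), 41 had a listed transcript and 31 were tested. Fads2, the desaturase that acts in making arachidonic acid from linoleic acid, was the only gene of the 31 to be called, and it was upregulated. It had 99.2, 84.5 and 84.2 CPM in controls and 149, 139 and 153 CPM in degenerated libraries, without overlap, and a log2 fold change of 0.72 (SE 0.12, adjusted p = 0.218 by edgeR). The single call was 3.23% of the 31, beside 2.73% of all genes. At an unadjusted p under 0.05, 4 of the 31 passed (12.9%, against 9.68% of all genes), with Fads2 and Faah, which hydrolyses fatty acid amides such as anandamide, above 0 and Fam213b, a prostaglandin F synthase, and Cbr1, a carbonyl reductase that acts on prostaglandin E2, below 0. Fam213b had 54.7, 48.5 and 61.6 CPM in controls and 38.8, 37.5 and 36.6 CPM in degenerated libraries (log2 fold change -0.55, SE 0.15, adjusted p = 0.381 by edgeR). Across the 31 genes, 13 had a log2 fold change above 0, the median was -0.36, and for 7 the groups did not overlap (22.6%, against 17.7% of all genes).

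The calls on single members depended on the tool and on single libraries. Pla2g12a passed the criteria of p and fold change with DESeq2 (unadjusted p = 0.00774) and in edgeR's test without control 2 (log2 fold change 0.69, unadjusted p = 0.00930), and Pla2g4a with DESeq2 (unadjusted p = 0.00119) and in edgeR's test without degenerated 2 (log2 fold change 2.79, unadjusted p = 0.00877). With other libraries left out, the log2 fold change of Pla2g4a ranged from 1.91 (without degenerated 3, unadjusted p = 0.0636 by edgeR) to 3.09 (without control 2, unadjusted p = 0.0132), and with the replicate number as a block its unadjusted p was 0.0873. Ptgis, Pla2g12a, Pla2g4a and Alox5 kept their direction in every setting plotted. An exact permutation test of 3 against 3 libraries cannot give a p below 0.1.

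**Figure D5:**
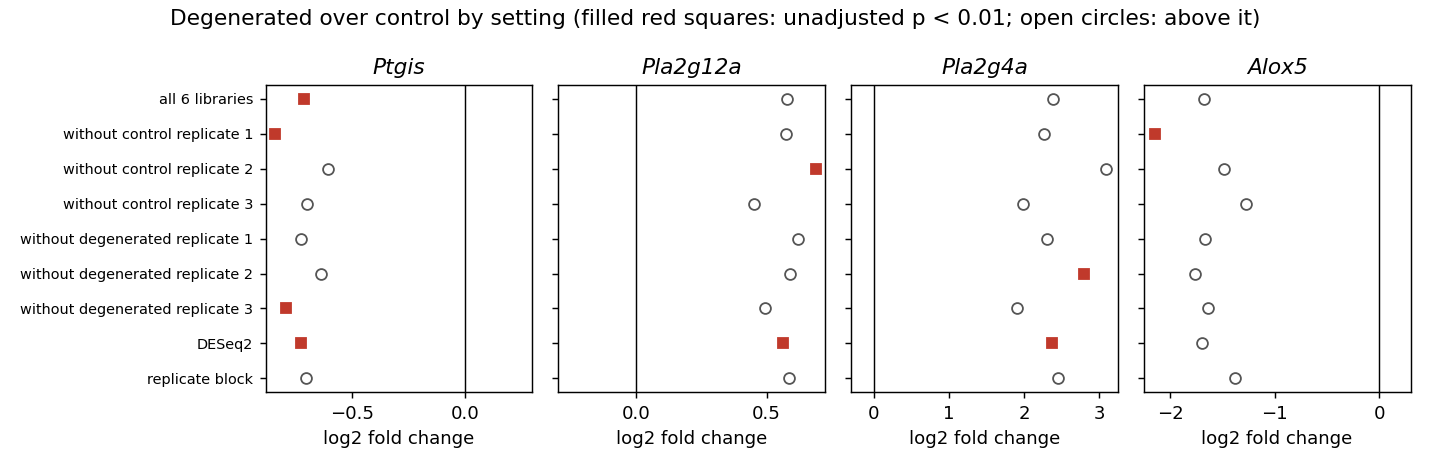
Log2 fold change (horizontal axes, degenerated over control) of Ptgis, Pla2g12a, Pla2g4a and Alox5 with all 6 libraries, with each library left out, with DESeq2 and with the replicate number as a block (rows). Filled squares mark an unadjusted p under 0.01 and open circles a larger p, and each gene stays on the same side of 0 in all rows.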

How the data were processed

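The authors sequenced RNA of the cochlear modiolus in 3 control and 3 degenerated samples with an Illumina TruSeq kit (strand not stated). The paper names Hisat2 and StringTie, whereas the submitters' processing notes list Bowtie 0.12.2 and the builds mm8 and mm10. The deposited table holds raw counts per transcript, without normalization, for 65535 Ensembl transcripts, and depth was 12480876 to 15549319 counts per library. Transcripts were joined to GENCODE M21 (GRCm38), 263 of them with 0.125% of the counts did not match and were left out, and counts were summed per gene. A change in which transcripts are counted can therefore change a gene's sum.

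The test across genes was that of edgeR 4.0.16 under R 4.3.3 (filter by filterByExpr, TMM with factors of 0.983 to 1.02, robust quasi-likelihood F test, no covariates) and p-values were adjusted over all genes tested. CPM use TMM factors, and SE is the log2 fold change over the square root of F. Transcripts were tested in the same way. The steps were tested on simulated data. Alternatives were DESeq2 1.42.0, voom of limma 3.58.1, RLE normalization, no filter, a stricter filter (mean count of 10), only genes with every coding transcript listed, a block on the replicate number, and leaving out each library in turn. The replicate numbers of the labels were not taken to pair samples.

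The members and lists were chosen with earlier results of these data known. Members named are those at an unadjusted p under 0.05, and in each class the 2 with the highest mean TPM, and of the other pathway genes those at a p under 0.01. Hpgds, Ptgs1, Ptgs2, Ptges, Ptges3l, Tbxas1, Pla2g6, Pla2g15, Pla2g4e, Ephx2, Lta4h, the receptors, Faah, Fam213b, Cbr1 and the single marker genes were named after their values were seen. Of the other marker lists, Schwann cell markers (4 of 5 listed) summed to 5168 to 9201 CPM in controls and 4473 to 7199 CPM in degenerated libraries, and oligodendrocyte markers (3 of 4) to 67.4 to 139 and 63.6 to 174 CPM.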

Additional observations from a re-analysis of the deposited data

How the results depend on the processing

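The count of members called was small in every setting. DESeq2 called 2 members upregulated and 2 at an adjusted p under 0.05, 785 genes in all and 2 transcripts of members. With only the genes that have every coding transcript listed, 12 members were tested and 0 were downregulated. In this setting 178 genes were called in all and the median log2 fold change of the members was -0.032, with fewer genes tested by construction. Ptgis, Pla2g12a, Pla2g4a and Alox5 were left out by this restriction, so the 0 does not bear on the call of Ptgis. The median was 0.11 with limma-voom. Deviations from the group mean correlated at 0.16, -0.09 and 0.07 between libraries of the same replicate number. With so few libraries this cannot settle whether samples were paired. With the replicate number as a block, 0 members were downregulated, 0 transcripts and 218 genes were called and the median was 0.14. The log2 fold change of Ptgis was then -0.70 (unadjusted p = 0.0183 by edgeR). When each library was left out in turn, members called ranged from 0 to 1 (upregulated) and 0 to 2 (downregulated), those that edgeR gave an adjusted p under 0.05 stayed at 0, the median ranged from -0.15 to 0.046, transcripts called from 0 to 2 and all genes called from 258 (without control 3) to 497 (without control 1).

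Of 297 log2 fold changes of the 24 members recomputed under 13 alternatives, 280 kept their direction and 17 did not. Ptger4 was 0.77 with limma-voom and 0.25 with the block. With single libraries left out, the range crossed 0 for Alox15 (-0.0069 to 0.94), Alox5ap (-1.39 to 0.046), Cyp2j9 (-0.035 to 0.31), Ephx1 (-0.081 to 0.11), Hpgd (-0.22 to 0.12), Lta4h (-0.77 to 0.076), Pla2g7 (-0.046 to 0.070), Ptger4 (-0.69 to 0.48) and Tbxas1 (-0.54 to 0.34). The causes were not tested. With 3 libraries per group and a biological coefficient of variation of 0.488, low-count members such as the receptors had standard errors of 0.44 to 1.03. Standard errors were also large for some members with more counts (0.77 for Alox5ap and Pla2g4a).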
